A study of Mus musculus with 4 samples.

Results

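Methylated regions at the 3′ ends of protein-coding genes were examined in pancreatic islets of WT and βRapKO mice. Peaks of MeDIP-seq, in which an antibody against methylated cytosine pulls down DNA fragments before sequencing, on chromosomes 1 to 19 were joined across libraries if they shared 1 bp or more. A joined region was taken as a 3′ end region if it came within 500 bp of the end of a protein-coding gene and touched no promoter window, which reached from 1000 bp upstream to 500 bp downstream of a gene start. Of 180857 joined regions, 4677 were 3′ end regions. They lay at 4908 of 20807 protein-coding genes (23.6%). With regions at promoter windows kept, 5460 genes (26.2%) had one.

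Both genotypes were 8 weeks old. The labels give the strain as C57BL/6, whereas by the study's methods the floxed line was C57BL/6J and the RIP-Cre line was of mixed C57BL/6J and 129/SvJ background, so the mice compared can be of mixed background. WT mice carried the floxed Raptor allele (Raptor lox/lox) without Cre, and βRapKO mice were Raptor lox/lox with RipCre, in which a rat insulin promoter drives the recombinase in beta cells. Raptor is the scaffold subunit of mTORC1, a kinase complex that couples nutrients to growth. There were 2 libraries per genotype, and the labels do not say whether the libraries came from separate mice, so the tests measure the spread between these libraries only. Islets hold other endocrine cells, vessels and connective tissue besides beta cells. Fewer cells of a type and less methylation per cell cannot be told apart in such samples, and an assay of DNA gives no expressed marker to check the tissue by.

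In mammals DNA methylation is placed mainly on cytosines followed by guanine (CpG). The bodies of genes are widely methylated while CpG-rich gene starts mostly are not, and the gene end is where the pre-mRNA is cut and given its poly(A) tail, usually in a last exon that holds the end of the coding sequence and the 3′ UTR. MeDIP reads out how many fragments were captured, so a region with more CpGs gives more tags at the same methylation.

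The sequences below come from 8 of the named regions. Each is 200 bases of the GRCm38 (mm10) plus strand, read from RefSeq's assembly at the 200 bases outside annotated UTRs nearest the peak summit (the base with the most tags), within 500 bp of it, with every CpG in capitals. The first pair comes from regions with fewer tags in βRapKO, the second pair from regions with more, the third pair from the most densely tagged regions, and the last pair from regions with peaks in only 1 genotype.
Nr4a1, chr15:101270358-101270557: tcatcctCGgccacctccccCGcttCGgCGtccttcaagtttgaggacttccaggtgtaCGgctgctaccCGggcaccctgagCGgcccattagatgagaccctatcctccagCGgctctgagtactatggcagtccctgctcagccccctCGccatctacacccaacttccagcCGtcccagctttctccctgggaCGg
Rap1gap, chr4:137726895-137727094: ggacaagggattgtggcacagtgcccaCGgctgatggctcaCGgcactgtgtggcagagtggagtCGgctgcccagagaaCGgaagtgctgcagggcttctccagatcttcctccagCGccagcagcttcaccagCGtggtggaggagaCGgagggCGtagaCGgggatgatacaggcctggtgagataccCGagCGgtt
Rps6ka1, chr4:133848055-133848254: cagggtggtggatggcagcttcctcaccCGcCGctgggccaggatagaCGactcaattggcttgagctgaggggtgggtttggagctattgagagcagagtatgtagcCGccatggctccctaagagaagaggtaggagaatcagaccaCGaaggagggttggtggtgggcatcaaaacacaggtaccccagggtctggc
Clstn1 and Pik3cd, chr4:149648968-149649167: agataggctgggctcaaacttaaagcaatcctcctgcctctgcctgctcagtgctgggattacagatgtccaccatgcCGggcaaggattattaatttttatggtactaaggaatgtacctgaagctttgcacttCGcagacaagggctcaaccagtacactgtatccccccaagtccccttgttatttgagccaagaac
1700123O20Rik and Gm29776, chr14:54692398-54692597: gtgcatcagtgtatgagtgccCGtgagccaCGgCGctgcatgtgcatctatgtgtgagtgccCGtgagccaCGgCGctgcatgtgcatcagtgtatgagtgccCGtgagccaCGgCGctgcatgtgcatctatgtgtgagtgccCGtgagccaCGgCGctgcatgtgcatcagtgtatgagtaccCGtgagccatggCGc
Zfp768, chr7:127343305-127343504: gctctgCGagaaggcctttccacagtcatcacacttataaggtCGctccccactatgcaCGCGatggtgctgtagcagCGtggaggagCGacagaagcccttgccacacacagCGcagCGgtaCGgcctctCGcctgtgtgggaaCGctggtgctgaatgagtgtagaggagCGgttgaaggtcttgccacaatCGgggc
Ccr7, chr11:99144961-99145160: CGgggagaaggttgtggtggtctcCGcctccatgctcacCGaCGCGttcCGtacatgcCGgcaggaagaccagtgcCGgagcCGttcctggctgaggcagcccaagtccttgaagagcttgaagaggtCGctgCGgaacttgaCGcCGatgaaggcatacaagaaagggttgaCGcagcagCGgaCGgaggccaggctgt
Abcb8, chr5:24408645-24408844: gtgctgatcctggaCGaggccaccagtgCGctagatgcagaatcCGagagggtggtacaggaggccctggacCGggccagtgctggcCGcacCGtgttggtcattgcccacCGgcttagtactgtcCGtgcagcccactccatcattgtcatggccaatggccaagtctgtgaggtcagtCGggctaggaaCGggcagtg
Coding sequence made up 60% to 100% of the bases in 6 of the 8 windows. Because the windows were placed outside UTRs, this share was partly set by the choice. At Rps6ka1 and at Clstn1 with Pik3cd the summit lay in 3′ UTR, so the windows shown lie beside it. The Clstn1 and Pik3cd window and the 1700123O20Rik and Gm29776 window lay between the ends of converging genes. The number of CpGs ran from 2 in the window between Clstn1 and Pik3cd to 16 in the Ccr7 window. The 1700123O20Rik window was a tandem repeat, with 98.3% of bases identical to the base 82 bp further on. In the Zfp768 window 63.8% of bases were identical at a shift of 84 bp, which is the length of 1 finger with its linker in a zinc finger array.

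The libraries were of similar depth. After duplicates were removed 25585533 and 31330751 tags were left in WT 1 and WT 2 and 29220997 and 29175287 in βRapKO 1 and βRapKO 2, and 32%, 35.4%, 29.2% and 31% of them lay in peaks. WT 2 stood apart with 146612 autosomal peaks against 113933 to 117525 in the other libraries. Of the 3′ end regions 71.6% had a peak in WT 1, 85.4% in WT 2, 70.0% in βRapKO 1 and 70.6% in βRapKO 2, and these peaks held 0.945% to 1.22% of all tags. Log2 tags in the 3′ end regions correlated at 0.909 between the WT libraries, at 0.898 between the βRapKO libraries and at 0.886 to 0.912 across genotypes (Pearson's r over 2400 regions, a description), and the values within a genotype lay inside the range across genotypes.

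A peak was present in all 4 libraries in 2400 of the 4677 3′ end regions (51.3%), against 40.1% of all joined regions. The share was 46.4% for joined regions at other exons and 46.3% for those at promoters. In 933 3′ end regions a peak was present in 1 library alone (19.9%, against 27.6% of all). The 3′ end regions were between 337 and 8185 bp long, with a median of 1322 bp. In all, 368 regions (7.87%) lay at 2 or more genes and 335 (7.16%) at gene ends on both strands, so that a peak there cannot be given to 1 gene. Among the 1331 genes with an opposite gene end within 500 bp, 462 (34.7%) had a 3′ end region, against 22.8% of the other genes, and the windows of such genes also hold a second gene's end. Genes of at least 10 kb had one in 25.5% and shorter genes in 20.1%. By chromosome the share ran from 19.6% of genes on chromosome 2 to 28.3% on chromosome 5.

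Methylation was found mainly on the genic side of the gene end. Of bases in the 3′ end regions, 30.1% were 3′ UTR, 24.2% intron, 17.4% coding sequence and 25.5% outside protein-coding genes. The 500 bp windows at all gene ends hold 40.9% 3′ UTR, 6.97% coding sequence and 42.5% bases outside genes. The regions therefore reached further into genes than the windows that chose them. Summits were upstream of the gene end in 68.1%, 67.6%, 66.7% and 67.5% of regions in WT 1, WT 2, βRapKO 1 and βRapKO 2, and their median distance from it, negative when upstream, was -407, -385, -381 and -408 bp. Between 32.5% and 34.8% of summits lay in coding sequence and between 27.2% and 28.4% in 3′ UTR, so coding sequence held more summits than 3′ UTR in every library.

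A profile around the ends of all 13520 genes of at least 10 kb, which did not use the rule, also fell across the gene end. At 2000 bp upstream of the end 13.8% and 15.3% of genes were under a peak in WT and 12.9% and 14.7% in βRapKO. At the end itself the shares were 8.79%, 10%, 8.93% and 9.59%. At 2000 bp downstream they were 6.01%, 6.89%, 6.13% and 6.61%, which is 2.1 to 2.3 times lower than at the same distance upstream in each library. These positions lie near the highest and lowest points of the profile. At 5000 bp downstream the shares were back at 8.34%, 9.22%, 8.2% and 8.76%, against 10.6%, 11.9%, 10.5% and 11.3% at 5000 bp upstream. CpG density moved far less over this stretch, from 1.23 per 100 bp at 2000 bp upstream to 0.975 at the end and 1.16 at 2000 bp downstream. Gene starts were the reverse, with 6.99 CpG per 100 bp and 3.34% to 4.05% of genes under a peak. The genotypes overlapped at the gene end, where the mean was 9.4% ± 0.853 in WT and 9.26% ± 0.471 in βRapKO (SD, n = 2, exact permutation p = 1, two-sided). The smallest p that 2 libraries against 2 can give is 0.33, so no comparison of single values between the genotypes could pass 0.05.

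**Figure D1:**
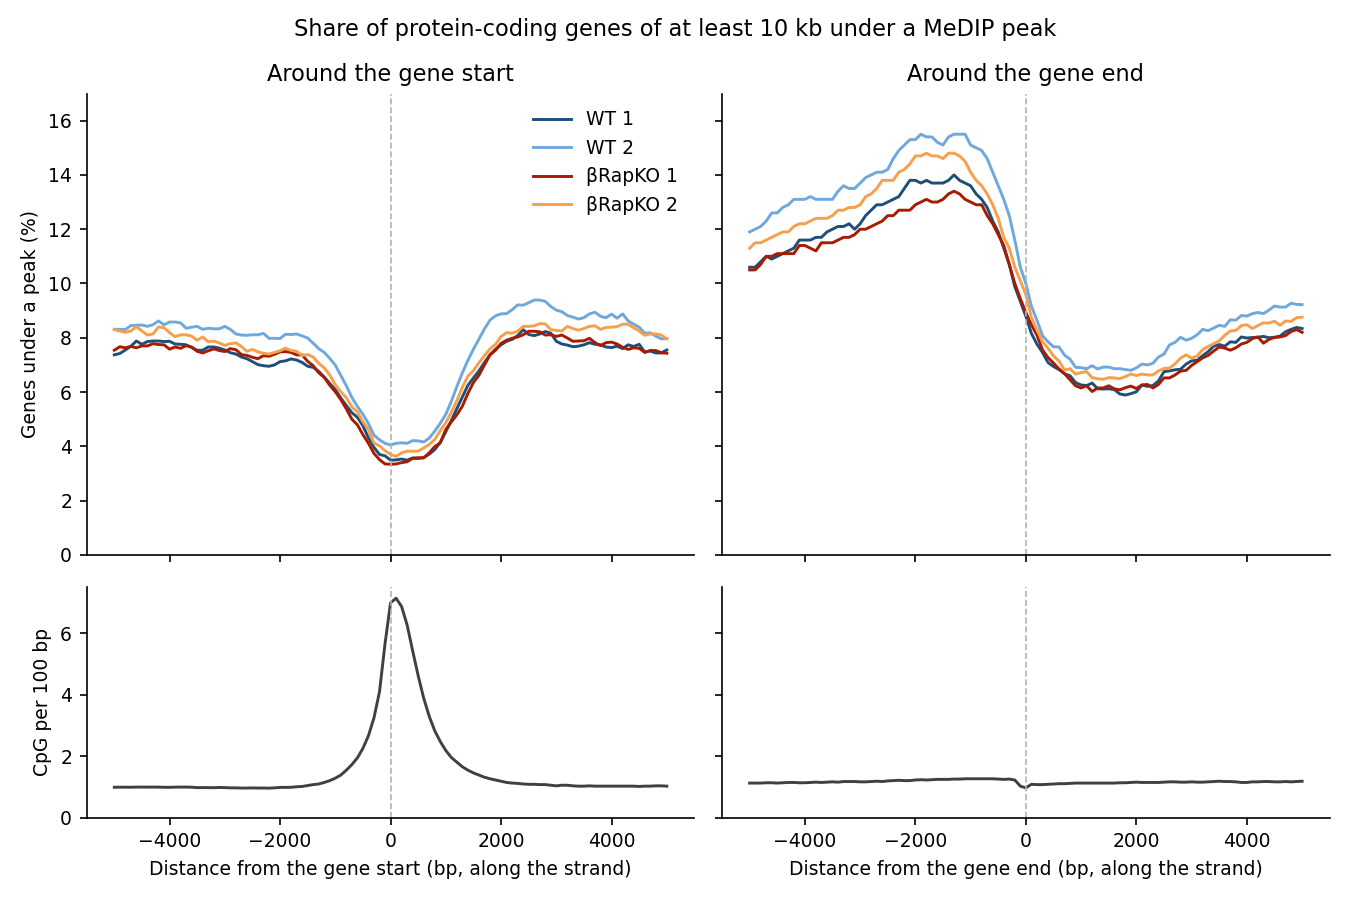
Share of protein-coding genes of at least 10 kb under a MeDIP peak (upper panels, %) and CpG per 100 bp (lower panels) by distance from the gene start (left) and the gene end (right) in bp along the strand, with 1 line per library. In every library the share falls across the gene end from 12.9% or more at 2000 bp upstream to 6.89% or less at 2000 bp downstream. It is back at 8.2% to 9.22% at 5000 bp downstream, against 10.5% to 11.9% at 5000 bp upstream. CpG density stays between 0.975 and 1.27 per 100 bp at the positions given, and around the gene start the share is lowest where CpG density is high.

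The 3′ end regions were compared with 4 other classes of joined region: 3591 at promoters, 31507 at other exons, 55410 in introns alone and 85672 outside genes. Tag density, the tags of a library in a region per kb of its peaks and per 1000000 tags of the library, had medians in 3′ end regions of 1.98 and 2.01 in WT and 1.78 and 1.81 in βRapKO. The medians were above those of every other class in each of the 4 libraries, by little against other exons. The ratio of medians was 1.06 to 1.10 against regions outside genes, 1.09 to 1.13 against introns and 1.07 to 1.09 against promoter regions, but only 1.01 to 1.02 against other exons. With 4 libraries all in one direction the exact sign-flip permutation test gave p = 0.13 for each of these comparisons, the smallest it allows. With stricter peaks the mean log2 ratio was 0.022 in place of 0.11 against regions outside genes, 0.064 in place of 0.15 against introns and 0.0060 in place of 0.023 against other exons, where it was also 0.0059 for regions of at most 3000 bp.

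The 3′ end regions also held more CpG than most classes, with a median of 1.87 per 100 bp against 1.85 at promoter regions, 1.81 at other exons, 1.45 in introns and 1.56 outside genes. CpG islands were rare among them, since 0.449% had a GC content of at least 50% with an observed to expected CpG ratio of at least 0.6 over their whole length. Regions with a peak in every library were then set beside other such regions of equal CpG density. In the lowest of 4 CpG groups of equal size their medians in the 4 libraries were 1.90, 1.95, 1.69 and 1.69 against 1.85, 1.92, 1.68 and 1.69 in all other regions, which is nearly the same. In the group with the most CpGs they were 2.58, 2.83, 2.23 and 2.36 against 2.84, 3.04, 2.51 and 2.61. The CpG-rich 3′ end regions were thus below the other regions in each library, at a median width of 2066 bp against 1824 bp.

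Tag density was lower in the βRapKO libraries than in the WT libraries in the 3′ end regions and in the other 4 classes. In the 3′ end regions the log2 ratio of genotypes was -0.15 with no overlap between libraries (exact permutation p = 0.33, the smallest possible). In the other classes it ran from -0.11 in introns to -0.15 at other exons. This direction rests on the library size. When tags were scaled to the sum of tags in peaks, which was a smaller share of all tags in βRapKO, the log2 ratio in the 3′ end regions was 0.0069. The ratio of 3′ end regions to regions outside genes, which no scaling of libraries changes, differed between genotypes by -0.032 on the log2 scale (exact permutation p = 0.33).

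**Figure D2:**
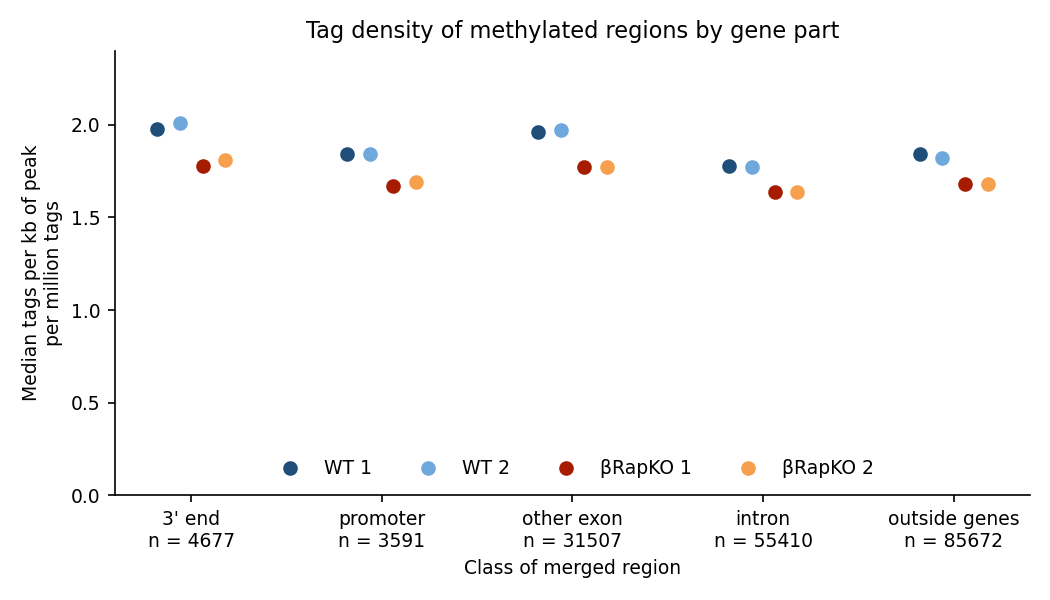
Median tag density (tags per kb of peak per 1000000 tags) of joined regions by class, with 1 point per library and the number of regions under each class. The 3′ end regions have the highest points in every library, close to those of other exons, and both βRapKO points lie below both WT points in each class.

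Single 3′ end regions were tested in the 2400 with a peak in every library. The edgeR quasi-likelihood test with Benjamini-Hochberg adjustment was fitted over all 72519 regions of this kind. No 3′ end region passed an FDR of 0.05 with a 1.5-fold change in either direction, as in all regions (0% lower and 0% higher). The smallest adjusted p among them was 0.38. At an unadjusted p under 0.05 171 were lower in βRapKO (7.12%, against 3.93% of all regions) and 34 higher (1.42%, against 1.9% of all). This split moved with the scaling, since 44 of 142 such regions were lower with library size taken as the tags in peaks and 119 of 171 with TMM normalization. In tags per kb of peak 286 of 295 such regions were lower. DESeq2 and limma passed none either, with 22 of 43 and 155 of 191 3′ end regions at an unadjusted p under 0.05 lower in βRapKO. Counts of 72519 regions were simulated at this depth and number of libraries, with 200 regions changed and the same spread for all. The edgeR test found 107 of 200 2-fold changes but 6 of 200 1.5-fold changes, so in this setting changes of the smaller size were mostly not detected. The yield can depend on the share of regions changed, and other shares were not simulated.

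The median log2 fold-change of the 3′ end regions, βRapKO over WT, was -0.10, against -0.059 over all regions tested. It was -0.097 at other exons, -0.1 at promoter regions, -0.047 in introns and -0.047 outside genes, so that 3′ end regions stood with the exons and promoters. Below 0 were 1611 (67.1%, against 60.7% of all regions). The βRapKO libraries were both below the WT libraries in 753 (31.4%, against 25.3% of all) and above both in 200 (8.33%, against 11.7% of all). The median of all regions moved with the scaling, from -0.059 to 0.10 with library size taken as the tags in peaks, and the share of 3′ end regions below 0 then fell to 40.1%. With TMM normalization the median of all regions was 0.0033 and 57.1% of 3′ end regions were below 0. The distance of the 3′ end median from that of all regions was -0.044, -0.043 and -0.044 under these scalings.

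A 1.5-fold change without a test was passed by 73 3′ end regions in the lower direction (3.04%, against 1.8% of all regions) and by 34 in the higher (1.42%, against 1.3% of all). Scaled to the tags in peaks the split was 30 lower and 79 higher. Tags were counted only within each library's own peaks, so a shorter peak holds fewer counted tags by construction. The fold-change moved with peak length. Of the 73 lower regions 72 had shorter peaks in βRapKO, with a median length ratio of 0.679, and all 34 higher regions had longer peaks, with a ratio of 1.78. Over the 2400 regions the ratio had a median of 1.06, and log2 fold-change and log2 length ratio correlated at 0.722 (Pearson's r, a description over regions of the same libraries). In tags per kb of peak 2 of the 73 lower regions were still past 1.5-fold and none of the 34 higher ones was. Of the 34, 24 were below 0 in tags per kb, as were 2015 of all 2400. Over the 2400 regions 93 were past 1.5-fold lower on that scale and 2 higher. How far the fold-changes go beyond this link between count and peak length was not tested.

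**Figure D3:**
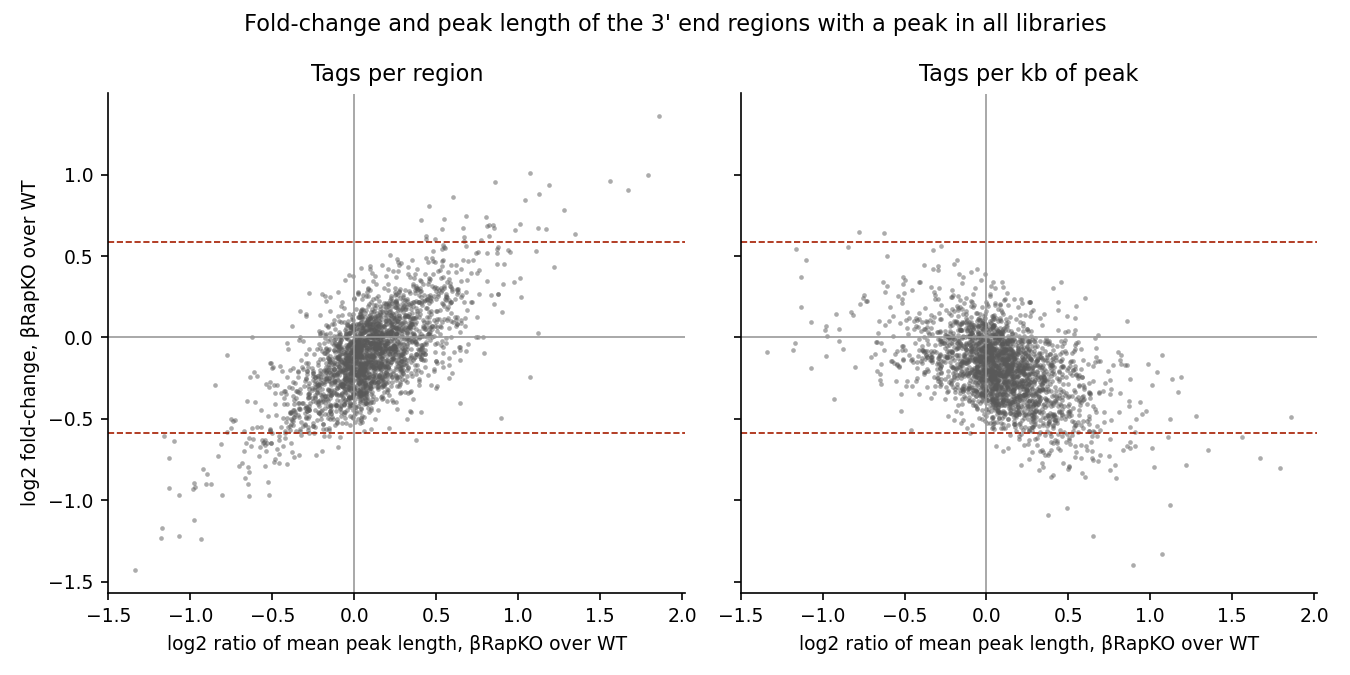
Log2 fold-change, βRapKO over WT, of the 2400 3′ end regions with a peak in all libraries against the log2 ratio of mean peak length, for tags per region (left) and tags per kb of peak (right), with dashed lines at 1.5-fold and 1 point per region. In tags per region 72 of the 73 points past the lower line have shorter peaks in βRapKO and all 34 past the upper line longer ones. In tags per kb the points slope the other way. Tags were counted within each library's own peaks, so both scales are tied to peak length.

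Among regions with at least 50 tags in every library (1638 of the 2400), the 8 lowest fold-changes were at Sik1, Nr4a1, Rap1gap, Plekhm2, Lysmd1 with Tnfaip8l2, Baz1b, Myh7b with Trpc4ap, and Sdc1. Values are tags in 1000000 tags of the library (CPM), counted only within that library's own peaks. They are in the order WT 1, WT 2, βRapKO 1 and βRapKO 2. Nr4a1, an orphan nuclear receptor induced by many stimuli, had a region at chr15:101269589-101275018 of 40.6% intron and 33.2% coding sequence with 11.4, 11.0, 3.76 and 5.69 CPM. The summit lay in coding sequence at -4337 bp from the gene end. Its log2 fold-change was -1.24 (adjusted p = 0.38, edgeR quasi-likelihood test), and neither βRapKO value reached a WT value. In tags per kb it was -0.38, and the peaks covered 5272 and 3608 bp in WT and 1851 and 2800 bp in βRapKO.

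A pair of these genes encode regulators of kinase and GTPase signalling. Sik1, a salt-inducible kinase, had a region at chr17:31844148-31848665, 45.1% of it 3′ UTR, with 2.97, 11.4, 2.67 and 2.71 CPM. The value of WT 2 alone set it apart, with a peak of 4402 bp against 1061 to 1124 bp in the other libraries, and the log2 fold-change of -1.43 was -0.14 without WT 2 and -0.087 in tags per kb. Rap1gap, a GTPase activator for Rap1, had 4.3, 9.06, 2.74 and 2.98 CPM at chr4:137726259-137729728, a region of 43.6% intron and 24.8% 3′ UTR. Its summit lay in coding sequence at -2866 bp from the gene end. Its log2 fold-change of -1.23 was -0.59 without WT 2 and -0.080 in tags per kb.

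Plekhm2, an adaptor between lysosomes and kinesin, had 17.7, 18.8, 5.17 and 11.6 CPM with 48.3% of the region in introns and 32.0% in coding sequence. Its summit lay at -2656 bp from the gene end. Baz1b, a bromodomain protein of chromatin remodelling complexes, had 2.97, 4.76, 1.71 and 2.26 CPM. The region at the ends of the converging Lysmd1 and Tnfaip8l2 had 5.12, 8.87, 3.94 and 3.22 CPM. In each of these the βRapKO values were below the WT values, with log2 fold-changes of -1.12, -0.97 and -0.97 and adjusted p of 0.68, 0.719 and 0.684 by edgeR. Single libraries moved these values. Plekhm2 was at -0.65 without βRapKO 1 and -1.82 without βRapKO 2, Baz1b at -0.58 without WT 2, and Lysmd1 with Tnfaip8l2 at -0.52 without WT 2. In tags per kb the log2 fold-changes were -0.11 at Plekhm2, -0.45 at Baz1b and -0.29 at Lysmd1 with Tnfaip8l2. The converging Myh7b and Trpc4ap shared a region with 12.7, 14.0, 5.95 and 7.71 CPM and a log2 fold-change of -0.97. The summit there lay in coding sequence, 3767 bp past the end of Trpc4ap. Sdc1, the proteoglycan syndecan-1, had 6.84, 6.35, 3.49 and 3.43 CPM and a log2 fold-change of -0.93. In tags per kb of peak Myh7b with Trpc4ap and Sdc1 turned to 0.095 and 0.046. Myh7b with Trpc4ap overlapped between genotypes on that scale, and at Sdc1 the peaks covered 3331 and 3027 bp in WT and 1617 and 1599 bp in βRapKO.

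The 7 highest fold-changes were at Rab22a, Rps6ka1, Clstn1 with Pik3cd, Olfr1155, Tcim, Itsn1 and Cckar. Rab22a, a small GTPase of endosomes, had 2.03, 2.17, 5.44 and 5.35 CPM at chr2:173706069-173709752, 34.6% of it 3′ UTR and the rest past the gene. Its peaks covered 976 and 980 bp in WT and 3414 and 3684 bp in βRapKO, and a log2 fold-change of 1.36 in tags (adjusted p = 0.38, edgeR) stood beside -0.49 in tags per kb. Rps6ka1, a kinase of the RSK family that acts below ERK, had 4.1, 5.07, 9.07 and 9.32 CPM at chr4:133847005-133851444. Its log2 fold-change was 0.997 in tags and -0.80 in tags per kb, with WT peaks of 1266 and 1287 bp and βRapKO peaks of 4423 and 4426 bp. In both genes the WT libraries had a short peak and the βRapKO libraries a long one.

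The region at the converging ends of Clstn1, a membrane protein of synapses, and Pik3cd, the delta catalytic subunit of PI3K, had 5.04, 5.3, 10.6 and 9.56 CPM, with a log2 fold-change of 0.96 in tags and -0.61 in tags per kb. Cckar, the cholecystokinin A receptor, with its summit at -2509 bp from the gene end, had 4.77, 3.89, 6.84 and 7.1 CPM. Itsn1, an endocytic scaffold, had 2.19, 3.0, 4.24 and 4.22 CPM. At both the βRapKO values were above the WT values, and both turned below 0 in tags per kb. On that scale 2015 of the 2400 regions tested were below 0. Olfr1155, an olfactory receptor gene, had 3.2, 2.81, 6.06 and 5.59 CPM and Tcim 2.31, 3.51, 4.96 and 4.76 CPM, both almost wholly downstream of the gene, and they alone of the 7 stayed above 0 in tags per kb, at 0.10 and 0.19. The log2 fold-change at Tcim was 0.73, and 0.47 without WT 1. None of the 15 regions passed the edgeR test, with adjusted p from 0.38 to 0.851.

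**Figure D4:**
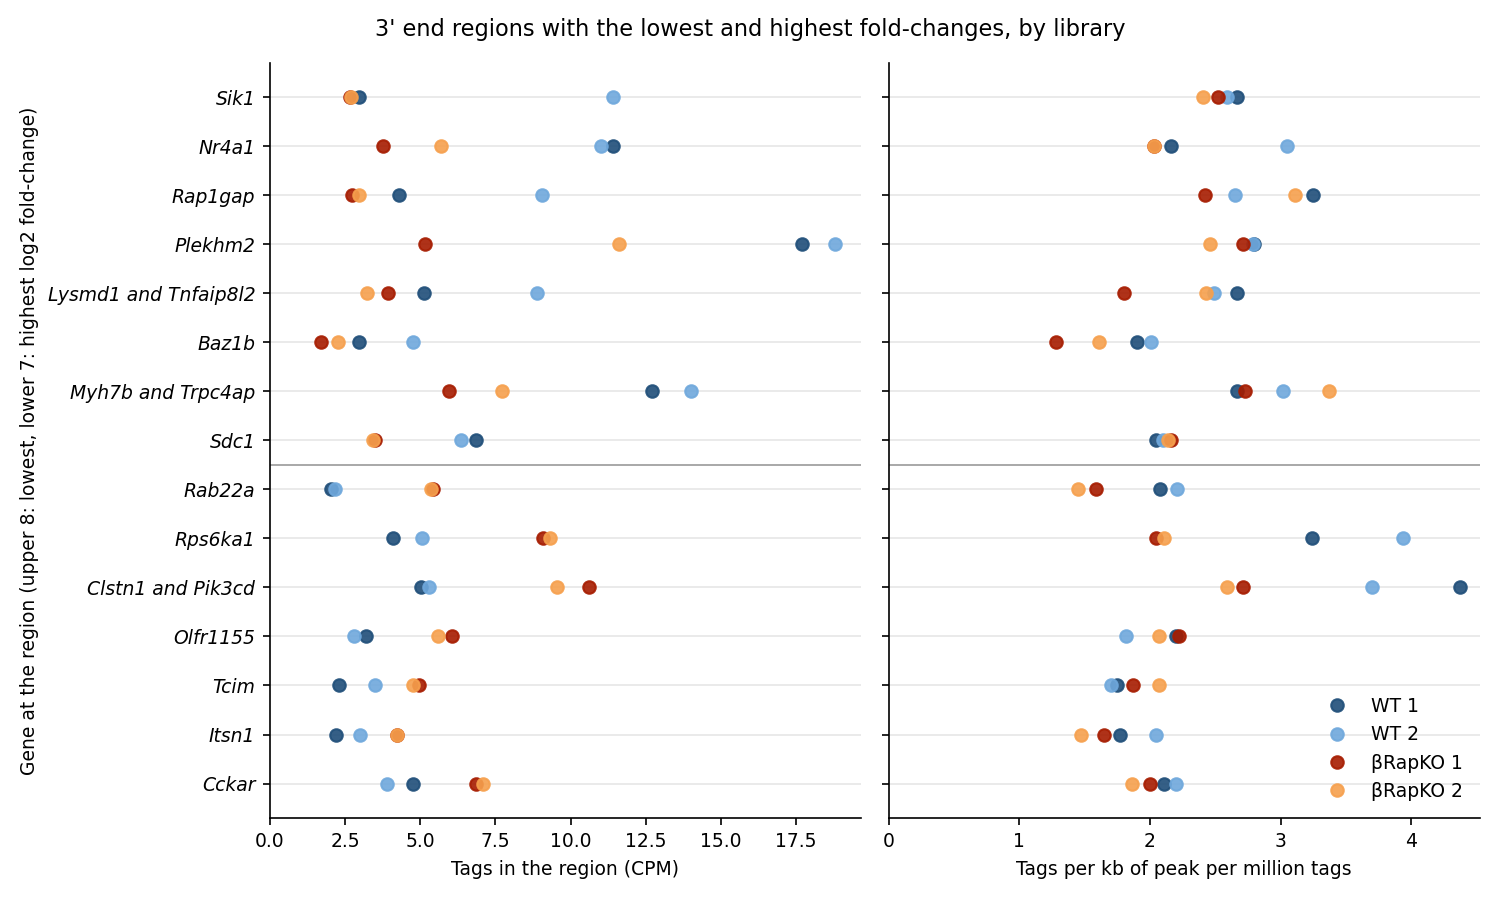
CPM (left) and tags per kb of peak per 1000000 tags (right) at the 3′ end regions with the 8 lowest (above the line) and 7 highest (below it) log2 fold-changes, with 1 point per library. In CPM the genotypes do not overlap in any row, though at Sik1 WT 1 (2.97) lies close to the βRapKO points and WT 2 alone stands apart. In tags per kb the genotypes overlap or change sides at Rap1gap, Myh7b with Trpc4ap, Sdc1 and every row below the line except Tcim. The other rows above the line keep both βRapKO points below both WT points.

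Most of the 8 most densely tagged 3′ end regions lay largely in coding sequence rich in CpG. The densest was among the exceptions. At Lars2, which encodes the mitochondrial leucyl-tRNA synthetase, the region chr9:123461472-123462738 was 78.2% 3′ UTR and had a tag density of 11.1, 11.0, 9.55 and 9.26 at only 1.89 CpG per 100 bp. The next densest, at 1700123O20Rik and Gm29776, was 81.9% outside protein-coding genes, with 7.65, 8.74, 5.77 and 6.01 at 4.92 CpG per 100 bp. The tandem repeat window shown above lay within it, and the rest of the region was not examined for repeats. The other 6 lay at Zfp768, Tmem267, Disp1, Zfp647, Chst12 and Por with Tmem120a and had 2.28 to 4.89 CpG per 100 bp. The Tmem267 region was 38.1% 3′ UTR, 33.7% intron and only 13.6% coding sequence. Their summits were in coding sequence in 5 of the 6, and at Disp1, a membrane protein that releases Hedgehog ligands, 87.6% of a region 3991 bp long was coding sequence with a tag density of 6.66, 6.37, 5.17 and 5.69. Zfp768 had 6.89, 6.97, 4.97 and 5.42 and Zfp647 5.89, 7.08, 4.87 and 5.23, with 73.2% and 60.7% of the region in coding sequence. All 8 had lower tag densities in both βRapKO libraries than in both WT libraries, as the medians of every class did. In CPM, which does not divide by peak length, the genotypes overlapped at Lars2 (10.4, 10.5, 11.1 and 10.1).

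Gene families differed in how often a gene had a 3′ end region. Among Zfp genes, zinc finger transcription factors, 96 of 385 (24.9%) had a 3′ end region, and among Slc transporter genes 97 of 372 (26.1%), close to the 23.6% of all genes. The share was 14 of 43 (32.6%) for the collagen Col genes but 60 of 1128 (5.32%) for olfactory receptors, 24 of 329 (7.29%) for vomeronasal receptors, 5 of 67 (7.46%) for protocadherins and 6 of 67 (8.96%) for histone genes. Short genes lose regions to the promoter rule. With promoter overlaps kept the share was 28.3% in place of 16.3% for the ribosomal protein genes and 28.3% in place of 22.6% for the keratins, but still 5.85% for olfactory receptors. The regions at Zfp genes were dense, with median tag densities of 2.54, 2.96, 2.26 and 2.41 over 64 regions and 2.35 CpG per 100 bp, against 2.11, 2.26, 1.9 and 1.93 over all 2400, whose median was 2.01 CpG per 100 bp. Members of these families share sequence, and how the aligner placed tags between near copies is not given in the sources used here.

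Peaks in both libraries of 1 genotype and in neither of the other were found at 172 3′ end regions for WT (3.68%, against 4.19% of all joined regions) and at 59 for βRapKO (1.26%, against 1.59% of all). Both shares were near the background and below it. The regions were weaker than the rest, with a median of 42.5 tags per library for WT only and 45 for βRapKO only against 80.8 in regions with a peak everywhere, and a library without a peak has no count in the files, so its tags are unknown and not 0. Leaving out single libraries also changed these numbers, to between 306 and 642 for WT and between 122 and 235 for βRapKO, partly because 1 library then stood for its genotype.

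The WT only regions with the most tags were at Ccr7, Cpa5, Cdh24, Zmynd15, 4931409K22Rik and Il4i1. Ccr7, a chemokine receptor of lymphocytes and dendritic cells, had a region 6946 bp long at chr11:99141767-99148712 with 20.6 CPM in WT 1 and 21.9 CPM in WT 2. Both βRapKO libraries had peaks nearby, 19 and 21 within 100000 bp of the region, but none there. The fold enrichment of the WT peaks over the local background was 4.39 and 4.46, under the median of 7.18 and 7.27 in the WT peaks of 3′ end regions. The βRapKO only regions with the most tags were at Abcb8, Cdc42bpb, Cyp26b1, Eid2, Ap4m1 with Taf6, and Map4k1 with Ryr1. Abcb8, a mitochondrial ABC transporter, had a region 6717 bp long at chr5:24404190-24410906 with 13.1 and 15.3 CPM in the βRapKO libraries, at fold enrichments of 2.91 to 3.44. Over the 12 regions fold enrichments ran from 2.91 to 6.73. In each case they were below the median of the 3′ end peaks of the same library, which was 7.18 and 7.27 in WT and 6.79 and 6.72 in βRapKO. The 10 regions besides Ccr7 and Abcb8 had 2.09 to 9.67 CPM.

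Fold-changes in tags per region ran with CpG density. In 4 groups of 600 regions each, from the fewest to the most CpGs, the median log2 fold-change was -0.042, -0.092, -0.096 and -0.18, and 57%, 65%, 67.2% and 79.3% of regions were below 0. All other regions cut at the same CpG densities gave -0.037, -0.053, -0.064 and -0.10. In tags per kb of peak the medians of the 3′ end groups were closer together, at -0.172, -0.183, -0.183 and -0.227. Median width rose over these groups from 1302 to 2066 bp, and CpG density and width were not tested apart. The libraries can be read one by one through the difference between the highest and the lowest CpG group in log2 CPM centred on the mean of the libraries, which library size does not change. It was 0.0070 in WT 1, 0.12 in WT 2, -0.10 in βRapKO 1 and -0.031 in βRapKO 2, with means of 0.065 ± 0.083 in WT and -0.067 ± 0.051 in βRapKO (SD, n = 2, exact permutation p = 0.33, two-sided). The genotypes did not overlap, but WT 1 and βRapKO 2 differed less than the libraries of 1 genotype did. In all other regions the values were -0.016, 0.085, -0.048 and -0.017, with WT 1 and βRapKO 2 almost equal.

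**Figure D5:**
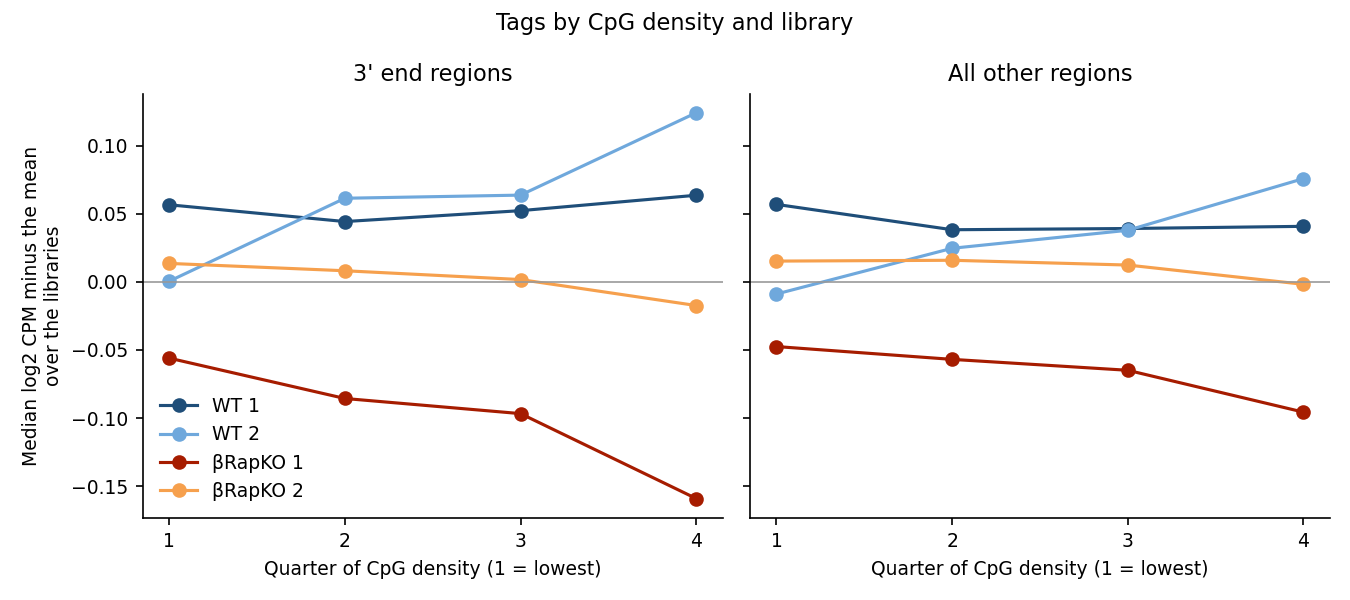
Median log2 CPM minus the mean over the libraries in 4 groups of rising CpG density, for 3′ end regions (left, 600 regions each) and all other regions at the same CpG densities (right), with 1 line per library. WT 2 climbs and βRapKO 1 falls toward the group with the most CpGs, while WT 1 and βRapKO 2 stay nearly level.

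Position within the gene end went with CpG density. The 1685 regions with the summit upstream of the gene end had a median log2 fold-change of -0.12 at 2.09 CpG per 100 bp, and the 715 with a downstream summit -0.068 at 1.8. With the summit in coding sequence (920 regions) the median was -0.17, with 76.1% below 0 and 2.31 CpG per 100 bp. With the summit in 3′ UTR (618 regions) it was -0.075 with 62.1% below 0, and outside genes (520 regions) -0.048 with 59.4% below 0, near the 60.7% of all regions. The 43 regions with the summit in an exon without coding or UTR annotation had a median of -0.17, with 81.4% below 0, 11.6% past 1.5-fold lower (3.48% with coding summits) and 1.98 CpG per 100 bp. Of these groups the one with coding summits had the most CpG. Median width was 1812 bp with coding summits, 1989 bp in such other exons, 1549 bp in 3′ UTR and 1492 bp outside genes. Position, CpG density and width were not tested apart.

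Disallowed genes are described in the study as lower in islets than in the other mouse tissues examined. The list used here holds only a part of those known, and it includes Dlk1, which the study introduces as a neonatal marker. Of 28 genes of the list annotated on chromosomes 1 to 19, 10 had a 3′ end region (35.7%, against 23.6% of all genes, with no test). A peak was present in every library at 3 of these. Hk1, the low-Km hexokinase whose silence keeps glucose sensing to glucokinase, had a region at chr10:62268571-62270328 of 60.1% 3′ UTR with 3.28, 3.89, 3.11 and 4.52 CPM. The genotypes overlapped there, and the log2 fold-change was 0.086 (adjusted p = 0.967, edgeR). Lmo4, a LIM-only cofactor, had 7.43, 7.05, 6.5 and 7.27 CPM, and Acot7, an acyl-CoA thioesterase, 1.37, 3.22, 1.64 and 1.92 CPM, both with overlapping genotypes and adjusted p of 0.951 and 0.896.

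The other 7 disallowed genes lacked a peak in 1 or more libraries. Igfbp4, an IGF-binding protein, had 4.46 and 4.18 CPM over its 3′ UTR in the WT libraries and no peak in βRapKO. Tgm2, a transglutaminase, had 2.11 and 1.72 CPM in the WT libraries alone. That region lay just past the end of Tgm2 and was 100% intron, of another protein-coding gene. Ndrg2 had 1.8 and 1.66 CPM in the WT libraries alone. Dlk1, an imprinted inhibitor of Notch signalling, had the opposite pattern, with 2.33 and 2.3 CPM in the βRapKO libraries alone. Thus 3 of the 10 disallowed regions were in the WT only class and 1 in the βRapKO only class, which held 3.68% and 1.26% of all 3′ end regions, and counts this small were not tested. Cat, the catalase gene, had peaks in WT 2 and βRapKO 2, Parp3 in WT 1 alone and Fbp1, a gluconeogenic enzyme, in βRapKO 1 alone.

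None of the hormone genes Ins1, Ins2, Gcg, Sst, Ppy and Iapp had a 3′ end region. Short genes lose regions to the promoter rule, and a gene end without a peak is not shown to be unmethylated. Of 20 beta cell transcription factor genes 3 did (15%), of 30 genes of islet hormones and granules 3 (10%) and of 16 glucose sensing genes 3 (18.8%), against 23.6% of all genes and with no test. Mnx1, a homeobox factor of beta cell identity, had 3.17, 3.1, 3.52 and 3.94 CPM in a region of 27.3% coding sequence and 29.9% 3′ UTR at 4.14 CpG per 100 bp, with both βRapKO libraries above both WT libraries (log2 fold-change 0.25, adjusted p = 0.867, edgeR). A second Mnx1 region, wholly past the gene at chr5:29470737-29472557, went the other way, with 2.07 and 3.51 CPM in WT, no peak in βRapKO 1 and 1.47 CPM in βRapKO 2. Tcf7l2, a Wnt effector, had 7.31, 5.68, 7.32 and 5.48 CPM, and the granule protein gene Chgb 4.77, 4.47, 4.11 and 4.25 CPM over a region of 69.7% coding sequence. Nkx6-2, whose end meets that of Inpp5a, had 8.99, 8.65, 8.01 and 9.12 CPM. The genotypes overlapped at Tcf7l2 and Nkx6-2 but not at Chgb, where the log2 fold-change was -0.14 with an adjusted p of 0.911 by edgeR. The glucose sensing genes Cacna1c, Cacnb2 and Gipr, a pair of calcium channel subunits and the GIP receptor, each lacked a peak in 1 library.

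Of 45 genes of mTORC1 and insulin signalling 9 had a 3′ end region (20%), and the Raptor gene Rptor was not one of them. Of the 6 regions with a peak in every library 4 were below 0, none passed the test and none was past 1.5-fold. Tsc2, a brake on mTORC1 whose end meets that of Pkd1, had 6.41, 8.11, 5.78 and 6.99 CPM, and Pik3r2, a regulatory subunit of PI3K, had 5.55, 5.94, 5.06 and 5.76 CPM, with overlapping genotypes. Tfeb, a lysosomal transcription factor held back by mTORC1, had 3.91, 4.15, 3.59 and 3.32 CPM, and Rragc, a Rag GTPase that recruits mTORC1 to lysosomes, had 2.35, 3.32, 1.61 and 2.57 CPM. At Rragc the genotypes overlapped. At Tfeb both βRapKO values were below both WT values, with a log2 fold-change of -0.22 (adjusted p = 0.872, edgeR).

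Of 23 genes of the DNA methylation machinery 2 had a 3′ end region (8.7%), the methyl-CpG-binding genes Mbd6 and Mbd2, and Dnmt3a, Dnmt3b, Dnmt1 and the Tet genes had none. Mbd6, shared with Dctn2, had 6.1, 6.26, 5.1 and 7.44 CPM and Mbd2 3.44, 3.67, 3.52 and 4.73 CPM, with overlapping genotypes. Of 26 genes of mRNA 3′ end formation 4 had one (15.4%), Cpsf1, Rbbp6, Pabpn1 and Cstf3. Cpsf1, a subunit of the cleavage factor that reads the polyadenylation signal, shared a region with Adck5 and had 4.38, 14.0, 8.18 and 12.7 CPM, with peaks of 1737 to 5057 bp and the lowest and the highest value both in WT. Rbbp6, a subunit of the same machinery, had 3.75, 3.16, 3.18 and 4.25 CPM over a region of 80% coding sequence, with overlapping genotypes. Of 52 imprinted genes 13 had one (25%), near the 23.6% of all genes. Among these Igf2, which shares its end with Gm49394, had 2.07, 1.12, 1.61 and 2.19 CPM in its 3′ UTR and Magel2 4.14, 2.81, 1.51 and 2.91 CPM, with a log2 fold-change at Magel2 of -0.64 (adjusted p = 0.861, edgeR) and a peak of 3474 bp in WT 1 against 1223 to 2204 bp elsewhere. It was the only region of these lists past a 1.5-fold change, and βRapKO 2 lay above WT 2 there.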

How the data were processed

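MeDIP-seq libraries from islets of 2 WT and 2 βRapKO samples were grouped by the submitters' labels. Per the file headers, the authors called peaks in each library alone with MACS 1.4.2 at a p cutoff of 1e-05, without a control library, with a local background over 10000 bp and 1 tag kept per position. The submitters' processing notes list Bowtie2 2.2.5, MACS 0.14.2, and both mm9 and mm10, and the deposited coordinates are mm10. The deposited tags per peak are a raw count, the deposited p-value is given as −log10 multiplied by 10, and the deposited fold enrichment is a ratio to the local background. A library without a peak has no count, and regions without a peak everywhere entered no test, so a loss of methylation that removes a peak appears only in the counts of peaks.

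The members and gene lists were chosen with earlier results of these data known. Peaks were joined across libraries, and the tags and lengths of each library's own peaks were summed per region. Genes came from GENCODE vM21 and CpG counts from RefSeq's GRCm38 sequence. Genotype was tested with edgeR 4.0.16 (quasi-likelihood, R 4.3.3) on regions with a peak in every library, with library size taken as tags after removal of duplicates (25585533 to 31330751) and Benjamini-Hochberg adjustment over 72519 regions, at an FDR of 0.05 and a 1.5-fold change. Single values were compared by exact permutation tests, two-sided (SciPy 1.17.1). The edgeR step was tested on simulated data of 72519 regions, where 107 of 200 2-fold changes were found with 4 unchanged regions called. Named were the 8 lowest and 8 highest fold-changes with at least 50 tags in every library (the last of the highest is not reported here), the 8 densest regions, the 6 regions per genotype with peaks in that genotype alone and the most CPM, up to 4 genes per list and all disallowed genes. Alternatives covered library size, TMM, DESeq2 1.42.0, limma 3.58.1 on log2(CPM + 0.5), tags per kb of peak, stricter peaks (10 × −log10 p of at least 100), at least 50 tags, joining, window and width limits, chromosomes X and Y, a replicate block and leaving out each library.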

Additional observations from a re-analysis of the deposited data

How the results depend on the processing

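No 3′ end region passed the FDR of 0.05 with a 1.5-fold change under any of the 18 alternatives run. The median log2 fold-change of the 3′ end regions turned from -0.10 to 0.061 with library size as tags in peaks, and was -0.041 with TMM, -0.042 with DESeq2, -0.19 in tags per kb and between -0.16 and -0.068 with single libraries left out. Regions past 1.5-fold alone, 73 lower and 34 higher, were 30 and 79 with tags in peaks, 47 and 17 with limma, 20 and 13 with stricter peaks and 47 and 13 with at least 50 tags. Tags per kb gave 93 lower and 2 higher, and regions of at most 3000 bp gave 47 lower and 24 higher. Leaving out single libraries gave 98 to 234 lower and 47 to 81 higher. In such fits 1 library stands alone and is assumed to vary like the other genotype. Stricter peaks left 2648 3′ end regions, 26 of them with peaks in βRapKO alone, a log2 ratio of tag density against regions outside genes of 0.022 in place of 0.11, and 5.04% of gene ends under a peak in place of 9.33%. With single libraries left out, regions with peaks in WT alone numbered 306 to 642 in place of 172 and those in βRapKO alone 122 to 235 in place of 59. The log2 ratio of tag density between genotypes was 0.0069 with tags in peaks and -0.18 with tags before removal of duplicates, in place of -0.15. Beyond fewer peaks or libraries, the cause of these shifts was not tested.

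In tags per kb the log2 fold-change changed sign at Myh7b with Trpc4ap (0.095), Sdc1 (0.046), Rab22a (-0.49), Rps6ka1 (-0.80), Clstn1 with Pik3cd (-0.61), Itsn1 (-0.30), Cckar (-0.17), Lmo4 (0.043), Hk1 (-0.19) and Acot7 (0.32). Lmo4 was also above 0 with tags in peaks (0.087) and without βRapKO 1 (0.0061). Leaving out single libraries moved Hk1 between -0.21 and 0.33, below 0 without WT 1 (-0.028) and without βRapKO 2, and Acot7 between -0.86 and 0.38, above 0 without WT 2.

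A fit with a replicate block passed 0 regions, with 252 of the 2400 3′ end regions at an unadjusted p under 0.05 and a smallest adjusted p of 0.432 by edgeR. Deviations of equal replicate numbers correlated at 0.0483 over the 3′ end regions (Pearson's r, a description). With 2 libraries per genotype this cannot decide whether the replicate numbers pair the libraries.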
